A study of Mus musculus with 24 samples.

Results

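The ribosome landscape of Selenop in wild type mouse liver was read in 6 ribosome profiling libraries: 3 of wild type mice from the SECIS1 line and 3 of wild type mice from the SECIS2 line. They are the wild type libraries among the 12 in the authors' Selenop tables and among 24 samples in the series, and they were chosen by their labels and not by their values. Selenop (ENSMUSG00000064373.12) encodes selenoprotein P. Each line of mice serves the study of a genomic deletion of 1 of the SECIS elements in the 3′UTR of Selenop, SECIS1 in one line and SECIS2 in the other, and the mice described here are labelled wild type. All were C57Bl6 mice on standard chow, the tissue was liver, and the labels give no age and do not say whether each library came from a separate animal. Any p-value therefore measures only how far these samples spread, and that spread may be technical. The sample identifiers of the lines begin with different numbers, whose meaning the labels do not give, so line cannot be told apart from batch in any difference between them. The table covers a single mRNA, so the tissue could not be checked against marker genes.

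Selenoprotein P is made mainly by the liver and carries selenium through the plasma to other organs, brain and testis among them. Its mRNA is unusual in that several UGA codons of the reading frame, which elsewhere end translation, are read as selenocysteine. This needs a SECIS element, an RNA stem-loop in the 3′UTR that recruits the machinery for selenocysteine insertion, and the Selenop mRNA holds a pair of them. The mouse protein has its first selenocysteine in its N-terminal part and the others clustered in its C-terminal part. In ribosome profiling, the stretches of mRNA that ribosomes protect from nuclease are sequenced, and each is assigned to the codon in the ribosomal A site, where the incoming tRNA is read.

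The authors' table gave the number of footprints with their A site at each of nucleotides 1 to 2096. The reading frame was placed by the initiation peak at nucleotide 158, which put the start codon at nucleotide 155, and the last codon with regular coverage was codon 378, ending at nucleotide 1288. The first selenocysteine codon, called UGA1 here, was taken as codon 59 (nucleotides 329 to 331) from its known place in the mouse protein. The depth was 17585 to 66070 A-site counts per library. Between replicates, the chi-square per degree of freedom over codons was 6.42 to 19.7, so no pair agreed within sampling noise. Each library's counts were sorted into the 5′UTR, the initiation codons, the part before UGA1 (codons 7 to 53), the codons around UGA1, the part after it (codons 65 to 373), the last codons and the 3′UTR.

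SECIS2 wild type replicate 3 stood apart from the other 5 libraries in the 3′UTR. The 3′UTR held 25.4%, 38.1% and 31.7% of Selenop counts in SECIS1 wild type replicates 1, 2 and 3, against 47.8%, 39.1% and 4.95% in SECIS2 wild type replicates 1, 2 and 3. Shares of all counts in the reading frame move with this value: the part after UGA1 held 47.8%, 41.5% and 42.0% in SECIS1 wild type and 36.8%, 41.5% and 64.1% in SECIS2 wild type. For this reason the reading frame was described within itself, by codon counts over the counts before UGA1 or over neighbouring codons, and neither of these uses the 3′UTR. SECIS2 wild type replicate 3 also differed in which nucleotide of a pause, a codon of high count, was highest: at codon 34 it had 75 and 778 counts at nucleotides 254 and 255, and in each other library nucleotide 254 was the higher one. It alone had its highest nucleotide off frame position 1 at 4 of the 19 shared pauses described further on (codons 34, 186, 233 and 346), against at most 1 for any other library. The 5′UTR held between 0.038% and 0.102% of counts in the 6 libraries.

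**Figure D1:**
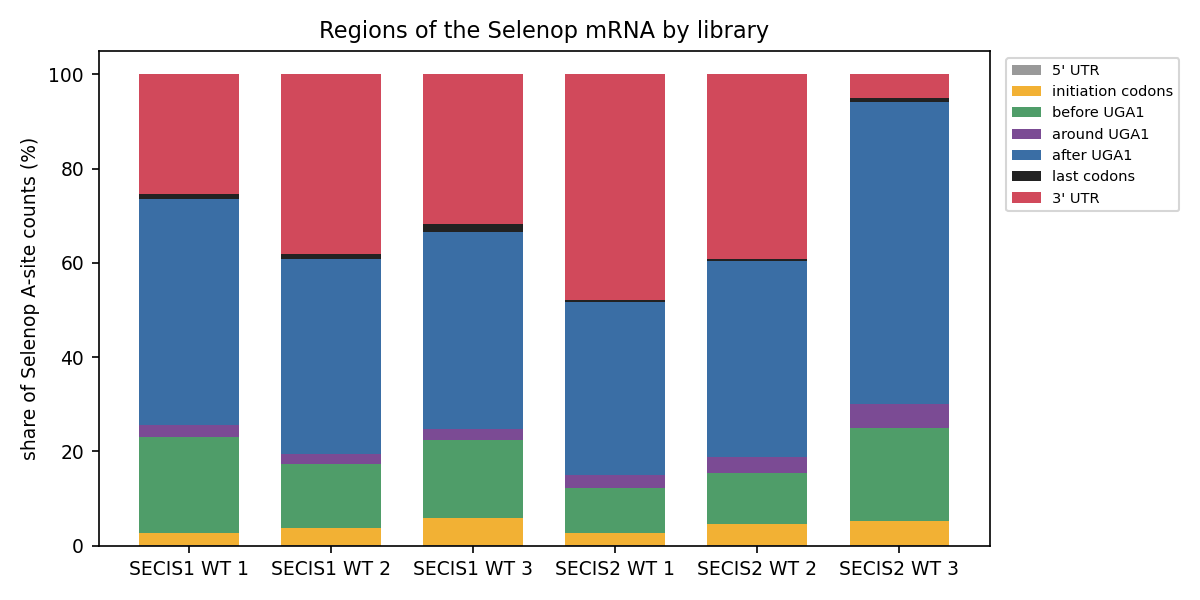
Share of Selenop A-site counts (%) in each region of the mRNA, stacked to 100% for each of the 6 wild type libraries. The 3′UTR took 25.4% to 38.1% in the SECIS1 wild type libraries, and 47.8%, 39.1% and 4.95% in the SECIS2 wild type libraries.

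Ribosomes were spread very unevenly over the reading frame, and the profile was much alike in all 6 libraries. The 10 highest codons of each library held 26.6% to 35.8% of its reading frame counts. It took 30, 25 and 26 of 378 codons to hold 50% of the frame counts in SECIS1 wild type replicates 1, 2 and 3, and 23, 21 and 20 codons in SECIS2 wild type replicates 1, 2 and 3. Codons without any count numbered 13, 26 and 30 in SECIS1 wild type and 26, 60 and 25 in SECIS2 wild type, and the highest of these belongs to the shallowest library. Across codons, Spearman's rho between libraries was 0.922 to 0.958 within SECIS1 wild type, 0.863 to 0.898 within SECIS2 wild type, and 0.856 to 0.917 between the lines. These are descriptions over codons of 1 mRNA, which share sequence, mapping and library preparation, and the pairs between the lines ran close to the pairs within SECIS2 wild type.

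**Figure D2:**
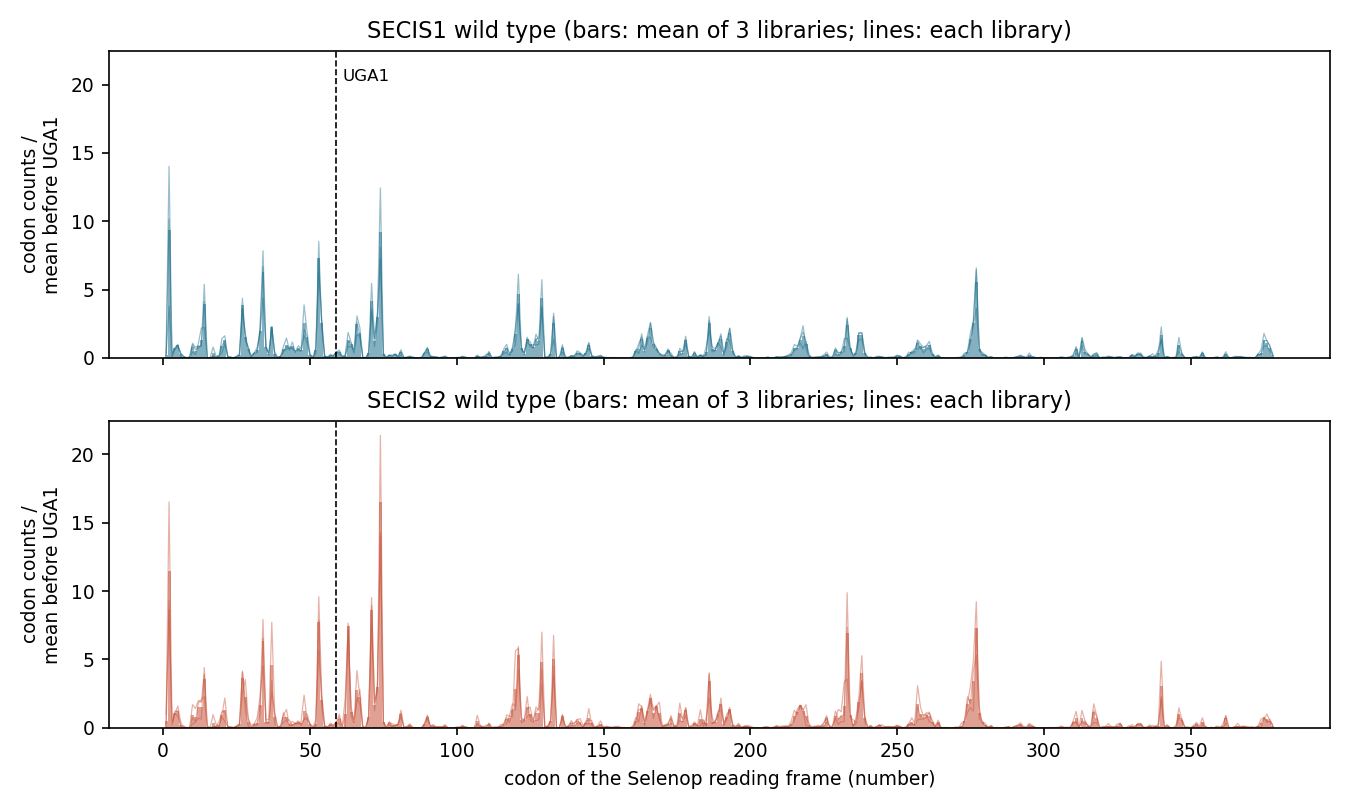
Codon counts over the mean codon count before UGA1 (y axis, a ratio without unit) along the 378 codons of the Selenop reading frame, with SECIS1 wild type in the upper panel and SECIS2 wild type in the lower one. Bars are means of 3 libraries, thin lines are single libraries and the dashed line marks UGA1 at codon 59. The same tall codons, 2, 34, 53, 74 and 277 among them, stand out in both panels, and codon 63 is tall in SECIS2 wild type.

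A pause was defined as a codon whose count was at least 3 times the mean of its 15 flanking codons on each side, a ratio called occupancy here. By this measure 19 of 378 codons (5.03%) were pauses in all 6 libraries: codons 2, 34 and 53 before UGA1, and codons 71, 74, 90, 121, 129, 166, 186, 193, 217, 233, 238, 277, 313, 340, 346 and 375 after it. They stood 3 to 39 codons apart, with a median spacing of 19.5 codons. Together they held 29.5%, 37.7% and 39.0% of frame counts in SECIS1 wild type and 35.2%, 39.9% and 38.4% in SECIS2 wild type.

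The pause with the highest floor over the 6 libraries was codon 277 (nucleotides 983 to 985), with occupancies of 18.1, 25.6 and 28.5 in SECIS1 wild type and 12.9, 20.0 and 26.9 in SECIS2 wild type. Codon 74 (nucleotides 374 to 376), 15 codons beyond UGA1, had occupancies of 13.4, 16.4 and 13.3 in SECIS1 wild type and 18.9, 12.6 and 13.0 in SECIS2 wild type. This single codon carried 4.71%, 5.78% and 3.75% of all frame counts in SECIS1 wild type and 8.38%, 5.28% and 6.30% in SECIS2 wild type. At both codons the ranges of the lines overlapped. Codon 340 (nucleotides 1172 to 1174) had occupancies of 10.6, 17.0 and 10.1 in SECIS1 wild type and 26.2, 14.0 and 17.8 in SECIS2 wild type. Codon 53 (nucleotides 311 to 313), the last pause before UGA1, had occupancies of 7.82, 9.65 and 14.2 in SECIS1 wild type and 6.07, 11.1 and 10.1 in SECIS2 wild type. Codon 121 (nucleotides 515 to 517) varied least among the 10 with the highest floors: 6.41, 8.03 and 6.77 in SECIS1 wild type and 5.98, 6.67 and 6.95 in SECIS2 wild type. Codon 2, the initiation peak, where ribosomes wait with the start codon in the P site, varied most: 5.55, 14.3 and 26.2 in SECIS1 wild type and 9.69, 24.8 and 13.6 in SECIS2 wild type, with overlapping ranges (two-sided exact permutation test, p = 1, which with 3 against 3 libraries cannot go below 0.1). The remaining 4 of those 10 were codons 238, 90, 186 and 34, with lowest occupancies of 5.25, 5.19, 5.03 and 5.01. No minimum was set for the flanks of a pause. In SECIS2 wild type replicate 2 the flanks of codons 340 and 90 averaged under 10 counts. At 9 of the 19 pauses the highest nucleotide was the first of the codon in every library, and at the other 10 it differed between libraries. Codon 2 is among the 9, but the frame was placed with the initiation peak as the first nucleotide of this codon.

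**Figure D3:**
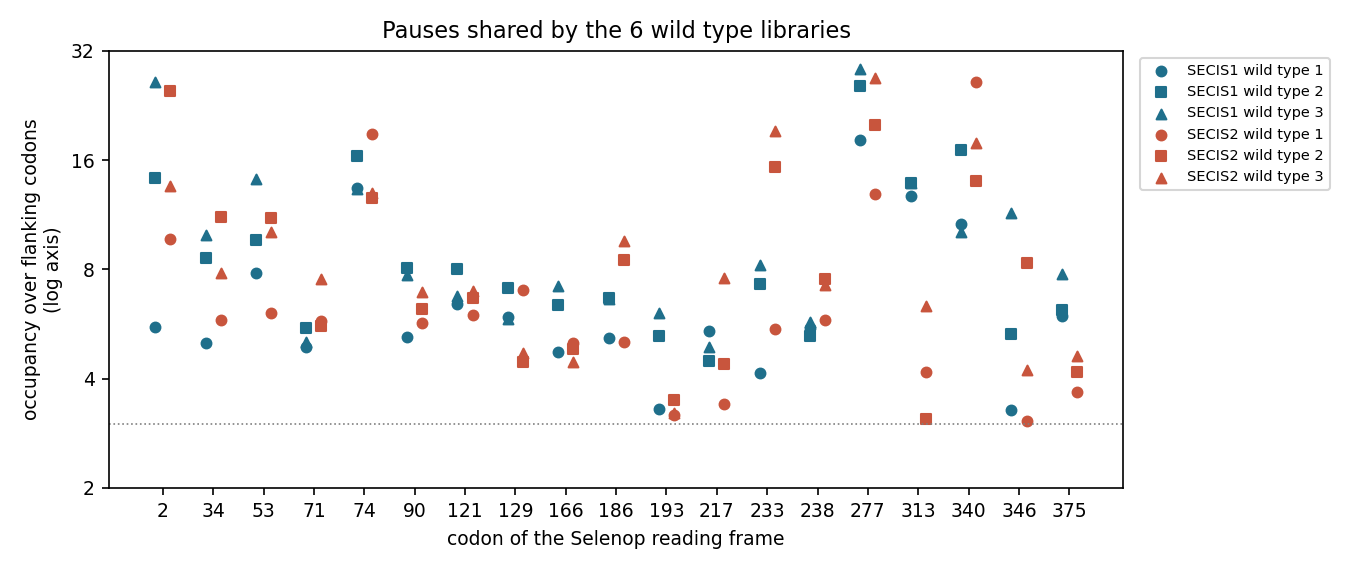
Occupancy (codon count over the mean of 15 flanking codons on each side, log axis) of the 19 pauses shared by the 6 wild type libraries, 1 point per library, with SECIS1 wild type to the left of SECIS2 wild type at each codon. The dotted line is the threshold of 3. Codon 277 lies between 12.9 and 28.5, and the SECIS1 wild type points of codon 313 all lie above its SECIS2 wild type points.

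The threshold left a narrow edge. Among the shared pauses, codons 193, 313 and 346 had the lowest floors, with 3.18, 3.09 and 3.06 in their lowest library. Just outside, codons 163, 258 and 257 reached 2.82, 2.82 and 2.80 in theirs. Codon 313, at this edge, had occupancies of 12.7, 13.8 and 13.8 in SECIS1 wild type and 4.16, 3.09 and 6.33 in SECIS2 wild type. Codons 71, 238, 313 and 375 were the shared pauses whose occupancies did not overlap between the lines, 4 of 19, while 20.1% of all 378 codons did not overlap. The test on counts described further on did not call codon 313 (log2 fold change 0.74, edgeR adjusted p = 0.239).

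Because every pause so defined had to pass in all 6 libraries, each line was also read with codons chosen in the other. In SECIS1 wild type 26 codons were pauses in all 3 libraries (6.88% of 378), and in SECIS2 wild type 23 were (6.08%), so the 19 shared codons were 73.1% of the SECIS1 wild type set and 82.6% of the SECIS2 wild type set. All 26 codons chosen in SECIS1 wild type lay above their flanks in every SECIS2 wild type library, and 22 of the 23 chosen in SECIS2 wild type did so in every SECIS1 wild type library. Of all 378 codons, 16.7% lay above their flanks in every SECIS2 wild type library and 22.5% in every SECIS1 wild type library, and the 19 shared codons are part of both counts by definition. The deletion libraries, which took no part in the choice, gave the threshold in every library at 17 of 19 shared pauses in SECIS1 deletion (all but codons 346 and 375) and at 16 of 19 in SECIS2 deletion (all but codons 193, 217 and 346), where 8.99% and 8.47% of all 378 codons reached it. In SECIS1 deletion few counts decide this late in the frame, with 9 and 3 counts at codon 346 and 1 and 1 at codon 375; up to codon 270 it was 14 of 14 shared pauses. Codons 27, 237, 257, 276, 311, 314 and 376 were pauses in all 3 SECIS1 wild type libraries but not in all 3 SECIS2 wild type libraries, and codons 37, 63, 133 and 190 were pauses in all 3 SECIS2 wild type libraries but not in all 3 SECIS1 wild type libraries. Most of them reached the threshold in some library of the other line, codon 257 at 8.11 and 11.7 in SECIS2 wild type replicates 2 and 3 among them. Of these 11 codons only 237, 314, 37 and 63 had occupancies that did not overlap between the lines. Of all 378 codons 20.1% did not overlap. The 11 were chosen on these same occupancies, so their share is no test of a line difference.

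Codons of low density were also shared. A trough was a codon at or under 0.25 of its flanks in all 6 libraries, counted only where the flanks averaged at least 10 counts. Of 279 such codons 94 (33.7%) were troughs, 16 before UGA1 and 78 after it. Codons 158, 204 and 268 had no count in any of the 6 libraries, which allows up to 3 counts per library. A contiguous stretch at codons 265 to 269 (nucleotides 947 to 961) held 1, 1 and 1 counts in SECIS1 wild type and 5, 1 and 1 counts in SECIS2 wild type. A longer one at codons 297 to 305 (nucleotides 1043 to 1069) held 36, 17 and 11 counts in SECIS1 wild type and 14, 1 and 11 in SECIS2 wild type. The first of these stretches ended 8 codons before the pause at codon 277, so that nearly empty codons and the codon with the highest shared occupancy lay close together in every library.

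Frame position 1, the first nucleotide of each codon, held more than 50% of the counts of the whole reading frame in all 6 libraries, with 53.1%, 57.7% and 60.4% in SECIS1 wild type and 58.1%, 64.7% and 52.3% in SECIS2 wild type. After UGA1 the share was 54.1%, 57.0% and 59.2% in SECIS1 wild type and 57.8%, 62.7% and 48.6% in SECIS2 wild type, and before UGA1 it was 47.8%, 55.9% and 61.9% in SECIS1 wild type and 51.0%, 69.8% and 55.8% in SECIS2 wild type. The lines overlapped in both parts (two-sided exact permutation tests, p = 1 after UGA1 and p = 0.7 before it, smallest possible 0.1). The rule that assigns the A site to a nucleotide bears on these shares, and the sources used here do not give it.

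Ribosome density was lower after UGA1 than before it in all 6 libraries. The mean count per codon after UGA1 over that before it was 0.356, 0.466 and 0.384 in SECIS1 wild type and 0.583, 0.585 and 0.494 in SECIS2 wild type, or 0.402 ± 0.0574 (SD, n = 3) and 0.554 ± 0.0520 (SD, n = 3). By the median codon, which the tallest pauses do not set, the ratio was lower still: 0.138, 0.163 and 0.212 in SECIS1 wild type and 0.313, 0.385 and 0.333 in SECIS2 wild type. On both measures the 3 SECIS1 wild type libraries lay below the 3 SECIS2 wild type libraries.

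The profile around UGA1 was not a single step. Codons 55 to 62, the 8 codons that include UGA1, formed a trough of 0.171, 0.218 and 0.223 of the mean before UGA1 in SECIS1 wild type and 0.278, 0.539 and 0.215 in SECIS2 wild type. The 8 codons ahead of it, 47 to 54, stood at 2.08, 1.85 and 1.82 in SECIS1 wild type and 1.56, 1.76 and 1.45 in SECIS2 wild type. Beyond the trough, the mean of codons 65 to 80 was again above the mean before UGA1 in all 6 libraries. It was 1.41, 1.86 and 1.19 in SECIS1 wild type and 2.73, 2.09 and 2.22 in SECIS2 wild type. A few codons carried it. Codons 66, 67, 71, 73 and 74 stood above the mean before UGA1 in every library, and codon 72 in all but SECIS1 wild type replicate 3. Codons 65, 68 to 70 and 75 to 80 stood below it in every library. Codons 81 to 373 together had a lower density, with 0.298, 0.390 and 0.340 in SECIS1 wild type and 0.466, 0.503 and 0.400 in SECIS2 wild type. The cut between codons 80 and 81 was set by hand, and the fall itself came after codon 74. The order along the mRNA was therefore the same in both lines. Dense codons before UGA1 were followed by a trough over it. Beyond it came a dense block that ended at codon 74, and then a lower mean level.

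The first codons beyond UGA1 took a large part of the counts there. Codons 60 to 80 include the end of the trough and codon 63 besides the dense block. They held 21.5%, 22.2% and 17.4% of all frame counts beyond codon 59 in SECIS1 wild type and 27.7%, 23.1% and 27.5% in SECIS2 wild type. In windows of 10 codons, the window of codons 71 to 80, which holds the pauses at 71 and 74, reached 1.73, 2.36 and 1.51 times the mean before UGA1 in SECIS1 wild type and 3.60, 2.73 and 3.02 times in SECIS2 wild type. It was the highest window of the frame in 5 of 6 libraries, the exception being SECIS1 wild type replicate 3, where codons 1 to 10 reached 1.67. Of 32 windows beyond codon 60, 2 stood above the mean before UGA1 in all 6 libraries, codons 71 to 80 and codons 121 to 130. Under 0.1 of that mean in all 6 libraries stood 6 windows (18.75%).

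**Figure D4:**
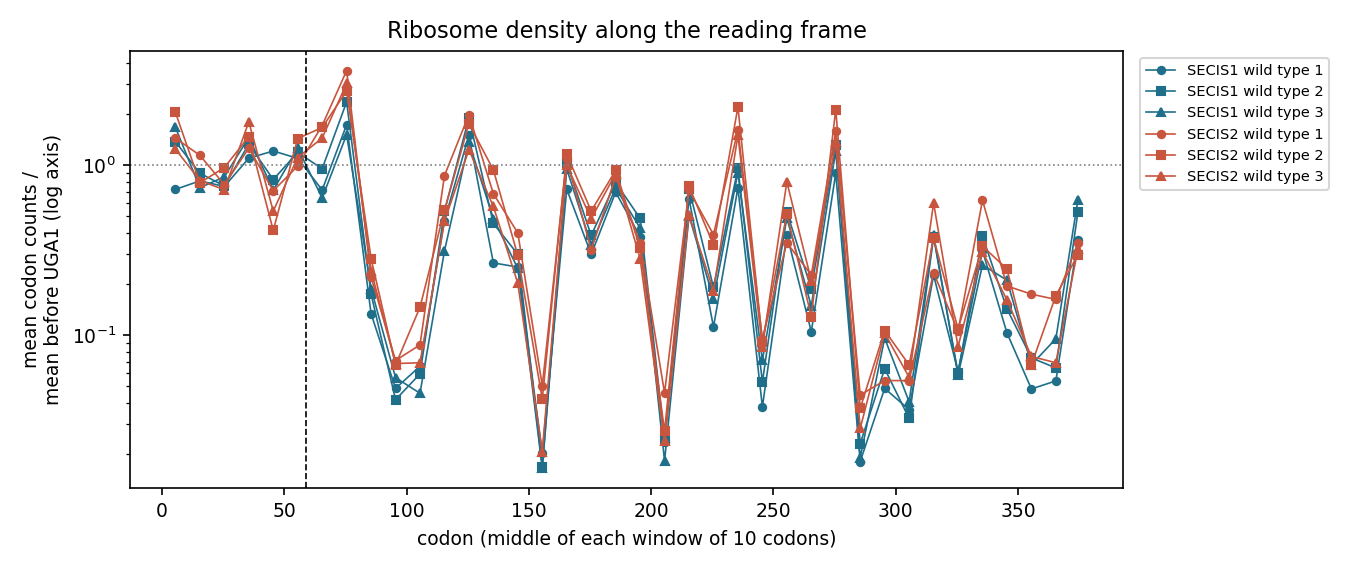
Mean codon count in windows of 10 codons over the mean before UGA1 (log axis), plotted at the middle codon of each window, 1 line per wild type library. The dashed line marks UGA1 and the dotted line the mean before it. Codons 71 to 80 form the highest window in 5 of the 6 lines, at 1.51 to 2.36 in SECIS1 wild type and 2.73 to 3.60 in SECIS2 wild type, and share the same valleys beyond.

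Against its flanks UGA1 itself was a codon of low occupancy, though it held more counts than each of codons 55 to 58 in every library. Codon 59 held 131, 67 and 53 counts in SECIS1 wild type and 36, 15 and 47 counts in SECIS2 wild type. Its occupancy was 0.315, 0.252 and 0.349 in SECIS1 wild type and 0.197, 0.188 and 0.189 in SECIS2 wild type, so the SECIS1 wild type libraries lay higher without overlap. The two-sided exact permutation test gave p = 0.1, the smallest that 3 against 3 libraries allow, and 0.3 after Benjamini-Hochberg adjustment over the 3 landmark codons tested. Its flanks include the pauses at codons 53, 71 and 74, and codon 63, described further on. Over the mean before UGA1 rather than over the flanks, codon 59 stood closer, at 0.456, 0.418 and 0.439 in SECIS1 wild type and 0.433, 0.372 and 0.360 in SECIS2 wild type. Codon 1, the start codon, had overlapping occupancies of 0.299, 0.173 and 0.123 in SECIS1 wild type and 0.659, 0.180 and 0.0613 in SECIS2 wild type (two-sided exact permutation test, p = 0.8). The selenocysteine codons beyond UGA1 and the end of the frame have no annotation in the table and are not analysed here.

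Between the lines, counts per region were compared with the counts before UGA1 as library size, so a negative log2 value means fewer counts per count before UGA1 in SECIS1 wild type. In edgeR's quasi-likelihood test with Benjamini-Hochberg adjustment over 6 regions, 2 regions were lower (33.3%) and 0 were higher, with 1, the last codons, higher at an unadjusted p under 0.05. The codons around UGA1, 54 to 64, which include codon 63, were lower with a log2 fold change of -1.05 (SE 0.21, adjusted p = 0.00422), and -0.70 with all Selenop counts as library size (adjusted p = 0.127). The value followed the width of the region: with 10 codons on each side of UGA1 it was -0.41 (adjusted p = 0.0921), and codon 59 alone stood at 0.24. The part after UGA1 was lower, at -0.46 (SE 0.15, 95% interval -0.79 to -0.14, adjusted p = 0.0333). The last codons had a log2 fold change of 0.64 (SE 0.24, adjusted p = 0.0532, and 0.0228 with DESeq2), the 5′UTR -0.73 (adjusted p = 0.192), the initiation codons -0.35 (adjusted p = 0.438) and the 3′UTR -0.57 (adjusted p = 0.512). The call for the part after UGA1 rested on the choice of library size: with all Selenop counts the log2 fold change was -0.12 (adjusted p = 0.949), and with all reading frame counts it was -0.10 (adjusted p = 0.264). It was kept without SECIS1 wild type replicate 2 and without SECIS2 wild type replicate 3, and lost without any of the other 4 libraries, with log2 fold changes of -0.58 to -0.38.

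The regions can also be given as shares of the counts outside the 3′UTR, a scaling close to that by all reading frame counts. The part before UGA1 held 27.4%, 21.8% and 24.4% of them in SECIS1 wild type and 18.4%, 17.7% and 20.7% in SECIS2 wild type, and the lines did not overlap. The part after UGA1 held 64.1%, 66.9% and 61.5% in SECIS1 wild type and 70.5%, 68.2% and 67.4% in SECIS2 wild type. The codons around UGA1 held 3.42%, 3.43% and 3.25% in SECIS1 wild type and 5.11%, 5.67% and 5.39% in SECIS2 wild type, and the last codons held 1.55%, 1.82% and 2.42% in SECIS1 wild type and 0.998%, 0.832% and 1.07% in SECIS2 wild type.

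The authors' ratio, which sets A-site counts, as a share of mapped footprints, against Selenop RNA reads, as a share of RNA reads, gives the level of ribosomes per mRNA rather than their share. The part before UGA1 summed to 0.0852, 0.0625 and 0.0814 in SECIS1 wild type and 0.0489, 0.0491 and 0.0478 in SECIS2 wild type, a 1.57-fold higher mean in SECIS1 wild type. The part after UGA1 summed to 0.199, 0.192 and 0.205 in SECIS1 wild type and 0.188, 0.189 and 0.155 in SECIS2 wild type, a 1.12-fold higher mean. Neither overlapped between the lines, and each gave p = 0.1 in the two-sided exact permutation test, the smallest possible. On this scale the lines stood further apart before UGA1 than after it, and SECIS1 wild type was the higher line in both parts.

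The frame was also compared in windows, on the same library size. This scaling centres the windows before UGA1 near 0, so on which side of UGA1 the calls fall is largely set by it. Of 38 windows of 10 codons, 2 were higher in SECIS1 wild type (5.26%), codons 41 to 50 (log2 fold change 0.72) and codons 371 to 378 (0.65), and 13 were lower (34.2%) in edgeR's quasi-likelihood test with Benjamini-Hochberg adjustment (39.5% together). In 17 of the 38 windows (44.7%) the values over the mean before UGA1 did not overlap between the lines. The largest of the lower ones were codons 61 to 70 (-1.06), 231 to 240 (-1.03, adjusted p = 0.00326) and 151 to 160 (-0.9996). The number of windows called depended on the library size: 0 were called in either direction with all Selenop counts, where 3 were higher and 3 lower at an unadjusted p under 0.05, and 3 were higher and 2 lower with all reading frame counts. It also depended on single libraries: without SECIS1 wild type replicates 1, 2 and 3 in turn 3, 6 and 9 windows were lower, and without SECIS2 wild type replicates 1, 2 and 3 in turn 3, 2 and 16 were.

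**Figure D5:**
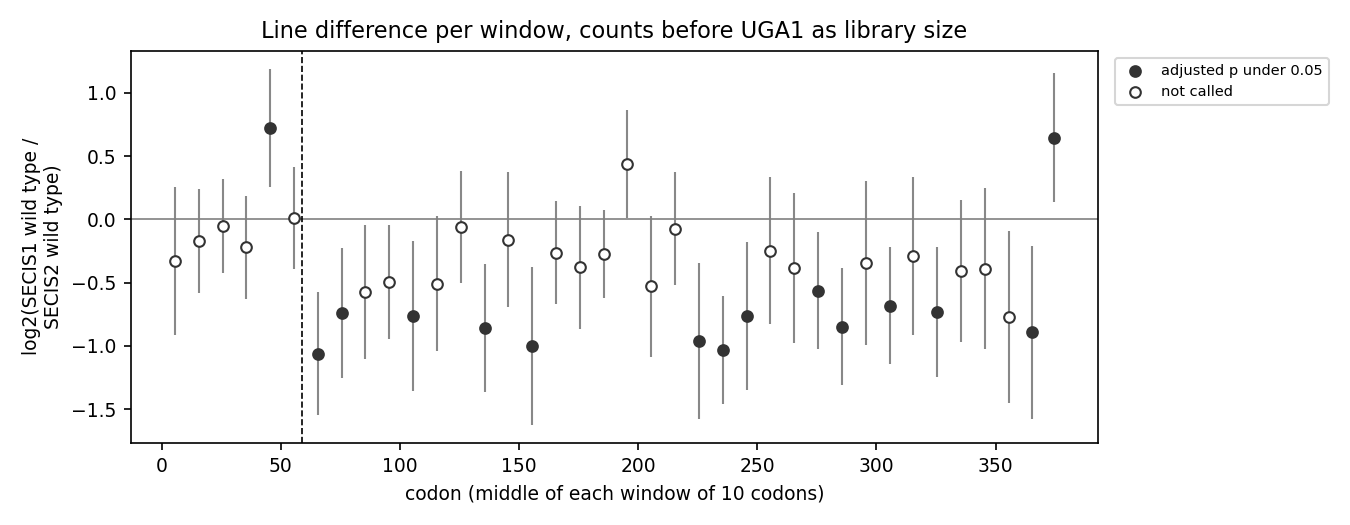
Log2 fold change of SECIS1 wild type over SECIS2 wild type in 38 windows of 10 codons, with the counts before UGA1 as library size, plotted at the middle codon; bars are 95% intervals and filled points passed an adjusted p of 0.05. The dashed line marks UGA1. Codons 61 to 70 have the lowest value (-1.06) and codons 41 to 50 the highest (0.72), and the scaling centres the windows to the left of the dashed line near 0.

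Few single codons passed the test. Of 258 codons tested, 2 were higher in SECIS1 wild type (0.775%) and 10 were lower (3.88%, together 4.65%) at an adjusted p under 0.05 in edgeR's quasi-likelihood test, and 61 were lower and 16 higher at an unadjusted p under 0.05. The median log2 fold change over all 258 codons was -0.25, and with TMM scaling it was -0.01, so codon values are to be read against this shift. With all Selenop counts as library size 2 codons were higher and 2 lower, and with all reading frame counts 3 were higher and 3 lower. Without SECIS1 wild type replicates 1, 2 and 3 in turn 2, 2 and 12 codons were lower and 0, 0 and 1 higher. Without SECIS2 wild type replicates 1, 2 and 3 in turn 25, 4 and 31 were lower and 7, 1 and 5 higher.

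Codon 63 (nucleotides 341 to 343), 4 codons beyond UGA1, had the smallest adjusted p of them. It held 245, 299 and 146 counts in SECIS1 wild type and 637, 289 and 972 counts in SECIS2 wild type. Over the mean before UGA1 this was 0.852, 1.86 and 1.21 in SECIS1 wild type and 7.66, 7.16 and 7.44 in SECIS2 wild type. The log2 fold change was -2.51 (SE 0.37, adjusted p = 0.000962), and it stayed between -2.85 and -2.27 and below the threshold with each library left out in turn. In the deletion libraries, read for this codon after its difference was seen, the value was 1.63 and 2.40 in SECIS1 deletion and 2.14, 1.09 and 1.07 in SECIS2 deletion. The neighbouring codon 62 did not separate the lines, with 0.108, 0.206 and 0.166 in SECIS1 wild type and 0.902, 2.13 and 0.0383 in SECIS2 wild type.

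Codon 274 (nucleotides 974 to 976) stood 3 codons ahead of the shared pause at codon 277. It reached 0.435, 0.462 and 0.348 of the mean before UGA1 in SECIS1 wild type and 2.27, 1.81 and 1.13 in SECIS2 wild type (log2 fold change -2.06, adjusted p = 0.00225). Codon 317 had values of 0.129, 0.225 and 0.307 in SECIS1 wild type and 0.385, 1.26 and 1.75 in SECIS2 wild type (log2 fold change -2.40, adjusted p = 0.0118). Codons 15 and 108 were also lower, with log2 fold changes of -2.92 and -1.87, on at most 20 counts in any library. Codon 317 missed the threshold without SECIS1 wild type replicate 1 (-2.10) or 2 (-2.42), codon 108 without either of these (-1.96 and -1.75) or SECIS2 wild type replicate 2 (-1.77), and codon 15 without any library but SECIS2 wild type replicate 1. Codon 15 held 20 counts in SECIS2 wild type replicate 3 and at most 4 in any other wild type library. Without SECIS2 wild type replicate 3 its log2 fold change was -1.82 (adjusted p = 0.232). In the deletion libraries codon 15 held 2 and 0 counts in SECIS1 deletion and 6, 15 and 12 in SECIS2 deletion. With all Selenop counts as library size the adjusted p was 0.0506 for codon 317, 0.130 for codon 108 and 0.0987 for codon 15. In an edgeR fit of only the 6 wild type libraries it was 0.112 for codons 317 and 108.

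The codons higher in SECIS1 wild type were 44 and 194. Codon 44 (nucleotides 284 to 286) held 337, 122 and 79 counts in SECIS1 wild type and 17, 19 and 19 counts in SECIS2 wild type, with a log2 fold change of 1.78 (SE 0.44, adjusted p = 0.0279). Codon 194 (nucleotides 734 to 736) held 129, 99 and 55 counts in SECIS1 wild type and 24, 6 and 10 counts in SECIS2 wild type, with a log2 fold change of 1.58 (SE 0.43, adjusted p = 0.0474). Each kept its direction with any library left out. Codon 44 missed the threshold without SECIS1 wild type replicate 1 (log2 fold change 1.49) or 2 (1.85), and codon 194 without any library but SECIS2 wild type replicate 1, with 1.14 as the lowest value. In an edgeR fit of only the 6 wild type libraries the adjusted p was 0.132 for codon 44 and 0.145 for codon 194.

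Of the 19 shared pauses, 0 were higher and 2 were lower, codons 233 and 238, with log2 fold changes of -1.52 and -1.26, against 0.775% higher and 3.88% lower over all codons tested. Their median log2 fold change was -0.30, beside -0.25 over all codons. Codon 233 held 414, 475 and 342 counts in SECIS1 wild type and 297, 399 and 963 counts in SECIS2 wild type, the highest of the 6 in SECIS2 wild type replicate 3.

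In the 3′UTR nearly all counts fell into a single narrow cluster. Nucleotides 1641 to 1661 held 94.2%, 96.3% and 97.5% of 3′UTR counts in SECIS1 wild type and 97.3%, 97.3% and 91.4% in SECIS2 wild type, although the 3′UTR as a whole differed so much between libraries. The highest position was nucleotide 1646, and nucleotides 1645 to 1647 held 19.7%, 31.6% and 27.1% of all Selenop counts in SECIS1 wild type and 43.8%, 32.4% and 2.87% in SECIS2 wild type. Per count before UGA1 this peak stood at 0.962, 2.34 and 1.63 in SECIS1 wild type and 4.57, 3.003 and 0.146 in SECIS2 wild type. A smaller cluster at nucleotides 1588 to 1598 held 1.81% to 5.84% of 3′UTR counts. Outside both clusters the rest of the 3′UTR held 244, 131 and 74 counts in SECIS1 wild type and 106, 23 and 43 counts in SECIS2 wild type.

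No difference between the lines could be shown in the 3′UTR. Its share gave p = 1 in the two-sided exact permutation test, and the authors' ratio over it was 0.106, 0.176 and 0.155 in SECIS1 wild type and 0.244, 0.178 and 0.0120 in SECIS2 wild type (p = 1). Without SECIS2 wild type replicate 3, the difference in share, SECIS1 wild type minus SECIS2 wild type, was -11.8 percentage points, and with it 1.08 percentage points. The share of nucleotide 1646 in the counts of 1646 and 1647 also varied by library, with 84.7%, 72.2% and 61.8% in SECIS1 wild type and 80.3%, 49.4% and 26.4% in SECIS2 wild type. At the initiation peak, the share of nucleotide 158 in the counts of 158 and 159 was 89.7%, 82.2% and 73.4% in SECIS1 wild type and 90.8%, 75.8% and 77.9% in SECIS2 wild type. SECIS2 wild type replicate 3 was the lowest library in both the 3′UTR share and the share of nucleotide 1646.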

How the data were processed

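Ribosome profiling libraries of mouse liver were analysed from the authors' tables for Selenop. The deposited counts are whole footprints per nucleotide by A site. Footprints were about 30 nt, per the labels' protocols. The aligner was Bowtie and the build mm9, per the submitters' processing notes. The Bowtie version and the way the A site was assigned are not given in the sources used here. The authors' further table holds a ratio, per the file headers: A-site counts scaled to mapped footprints over Selenop RNA reads scaled to mapped RNA reads. Within a library it equals the counts times a constant.

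Codons were summed from nucleotide 155, and the parts left out 5 codons next to the start, to UGA1 and to the end. UGA1 was set as codon 59 from knowledge of the mouse protein. The end was set where 20 codons in a row fell under 1% of the mean before UGA1. No Selenop transcript or protein sequence was used here, so the later selenocysteine codons were not placed. The members, lists and tests were chosen with earlier results of these data known.

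The quasi-likelihood test of edgeR 4.0.16 (R 4.3.3, Benjamini-Hochberg adjustment) was run for regions, codons and windows on the counts before UGA1 as library size, with all 11 grouped libraries in a group-means model. Log2 fold changes are SECIS1 wild type over SECIS2 wild type. Named codons are the 10 shared pauses with the highest lowest occupancy and up to 5 called codons per direction with the largest fold changes, with codons 1, 2 and 59. Codons 62, 71, 233, 238, 313 and 375, the edge codons and the pauses not shared by both lines were named after their values were seen. Single values were tested with exact permutation tests written in Python 3.11.15 with numpy 2.4.6. On simulated counts for 258 codons the codon test recovered 11.2% of 2-fold and 86.8% of 4-fold changes, and 6.94% and 4.40% of its calls were wrong. A missing call is thus no sign of equal counts. The simulation changed 60 codons per run, drawn evenly up or down. The test was given the library size that had made the counts, so these rates leave out errors from that choice. The floor behind a count of 0 was 3 counts and intervals have a 95% level; floors cover counting error only. Whether replicate numbers pair the samples was not settled. Deviations of libraries with the same number correlated at 0.54, -0.04 and 0.16, and those of libraries with different numbers at -0.52 to 0.52. Alternatives covered library size, DESeq2 1.42.0, filters, flanks, thresholds, a replicate block and each library left out.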

Additional observations from a re-analysis of the deposited data

How the results depend on the processing

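Log2 fold changes and differences here are SECIS1 wild type against SECIS2 wild type, and codon and window numbers are higher or lower in SECIS1 wild type. The part after UGA1 kept its direction under all alternatives and missed the adjusted threshold in edgeR's quasi-likelihood test with all Selenop counts (-0.12), with all frame counts (-0.10), with only the 6 wild type libraries (-0.46, adjusted p = 0.0995), with 10 codons left out beside landmarks (-0.46) and without the 5 highest positions (-0.52). The codons around UGA1 stood at -0.70 with all Selenop counts, -0.41 with 10 codons and 0.24 with 0 codons, which leaves codon 59 alone. Leaving out 10 or 0 codons also changes the codons that give the library size. The last codons passed with all frame counts (0.99) and with DESeq2 (0.63). The initiation codons turned to 0.0058 with all frame counts, and the 3′UTR to 0.050 with all Selenop counts.

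The number of codons was 0 higher and 2 lower with only the wild type libraries (6 and 45 at an unadjusted p under 0.05). With all Selenop counts 2 codons were lower, with frame counts 3, with TMM 4 and with DESeq2 on the same library sizes 23; with DESeq2 size factors 5 were higher. Windows numbered 0 higher and 0 lower with all Selenop counts, 2 lower with frame counts, 0 higher and 4 lower with only the wild type libraries (2 and 13 at an unadjusted p under 0.05), 1 higher with windows of 5 codons, and 0 higher and 2 lower with windows of 20 codons (0 and 5). Codon 2 turned to 0.034 with all Selenop counts and 0.053 with frame counts. Pauses numbered 34 at a threshold of 2, 10 at 5 and 64 against the median flank, and 14 with flanks of at least 10 counts, an alternative chosen after seeing the data. With that minimum, codons 90, 313, 340, 346 and 375 were no longer shared pauses. Troughs numbered 45 at a threshold of 0.1 and 58 with 5 flanking codons. With 5 flanking codons the occupancy of codons 1 and 2 moved to a log2 difference of 0.0743 and 0.0745.

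In an edgeR fit with a replicate block the part after UGA1 stood at -0.47 (adjusted p = 0.0861), the 5′UTR at -0.80 (adjusted p = 0.0259) and the 3′UTR at 0.055. In that fit 3 codons were higher and 14 lower, with 1 window higher and 5 lower. Whether the numbers pair the samples is not known, so a lost call there cannot be read as a weaker effect.

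With each library left out in turn, the part after UGA1 ran from -0.58 to -0.38, the last codons from 0.45 to 0.84 and the 3′UTR from -1.12 to 0.035. Higher codons numbered 0 to 7 and lower ones 2 to 31, higher windows 0 to 1 and lower ones 2 to 16. The share at frame position 1 differed by -7.63 to 1.78 percentage points before UGA1 and by -3.50 to 3.58 after it. Log2 occupancy differed by -0.90 to 0.82 at codon 1 and by -0.73 to 0.39 at codon 2, and their counts by -1.54 to 0.49 and by -0.72 to 0.077. The log2 level of the 3′UTR differed by -0.55 to 1.62, its share by -11.8 to 9.67 points and its peak's share by -12.0 to 8.50 points. Causes were not tested. Counts at troughs and at codons such as 15 and 108 limit what can be seen there.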

Other observations

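A further library of the table has a title that names no group of the study, and its heading in the table reads as a SECIS1 deletion, so it entered no comparison. It held 27317 Selenop A-site counts. Its density after UGA1 over that before was 0.316, and codons 71 to 80 stood at 1.10 times the mean before UGA1. Of the 19 pauses shared by the wild type libraries, 17 reached the threshold in it. Codon 63 held 136 counts. At the 3′UTR peak it had 0 counts, which allows a share of up to 0.0110% (3 counts of the total).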
